A study of Homo sapiens with 6 samples.

Results

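Methylated cytosines were compared between the RNA that sedimented with the small ribosomal subunit and the RNA that sedimented with the large ribosomal subunit. The comparison covered every 5-methylcytosine (m5C) site that was listed in both libraries with a coverage of 20 reads or more in each. There were 113 such sites in 110 genes, of the 542 sites listed in any of the 6 libraries of the series. The cells were wild-type HEK293T, a line derived from human embryonic kidney that carries the SV40 large T antigen. All fractions came from cycloheximide-treated lysate that was separated on a sucrose gradient, and poly(A)-selected RNA of each fraction was treated with bisulfite, which converts unmethylated cytosine to a base read as T and leaves m5C read as C. The other 4 libraries held free RNA, RNA with 1 ribosome (monosomes), with 2 to 5 (light polysomes) and with more than 5 (heavy polysomes). With 1 library per fraction, every test below compares libraries and covers counting error only, and p-values hold no spread between cultures. The lists hold called sites and not expression, so the cell line could not be checked against marker genes.

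m5C in mRNA is written by enzymes of the NOL1/NOP2/SUN (NSUN) family and is bound by the reader proteins ALYREF and YBX1. NSUN2 methylates sites followed by a G-rich stretch, which the study names Type I, and NSUN6 methylates sites followed by UCCA, named Type II. In a gradient, the fraction of the small subunit holds messages that carry an initiation complex before the large subunit joins, and the fraction of the large subunit lies between these and complete ribosomes. Sedimentation depends on mass and shape, so other ribonucleoprotein particles of similar size are collected with each subunit, and whether a subunit was bound to a given RNA was not measured.

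The sites on which the comparison turns are shown with 10 nt on either side, as read from the GRCh37 genome along the spliced transcript, in DNA letters and 5′ to 3′. Capitals mark the methylated C and the 4 bases after it, which define the site type. The first 5 are the shared sites of highest coverage. The next 3 had the highest coverage in the small relative to the large subunit library, and the last 3 are among the 6 with the lowest.
MT-RNR1: acacaccgccCGTCAccctcc
RPSA: gtgttatatcCTCCAggaata
RPS29: acggtctgatCCGGAaatatg
RPS3: acagggtgtgCTGGGcatcaa
SLC25A6: ccgccgccatCTCCAagacgg
RPPH1: tcagactgggCAGGAgatgcc
MARCKSL1: gcagccagagCTCCAaggctc
TMEM219: agtgctgttcCAGGAatccta
EIF4B: aggatcaagaCTCCAgatctg
SZRD1: agatacgtttCGGAGtggttg
CNTROB: gagtgagcatCGAGAgttgga
RPSA, SLC25A6, MARCKSL1 and EIF4B carry the TCCA that makes a site Type II. RPS29, RPS3, RPPH1, TMEM219, SZRD1 and CNTROB carry at least 2 G among the 3 bases after the methylated C. The MT-RNR1 site has neither feature and is counted as Type I only because it lacks TCCA.

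The shared sites comprised 42 of Type II (37.2%) and 71 of Type I. Among the Type I sites, 53 had at least 2 G in the next 3 bases. At the third base after the methylated C, 57 of the 71 Type I sites had G. By annotated location, coding sequence held 62 sites, 3′ UTRs held 25, noncoding exons held 12 and 5′ UTRs held 11. The remaining sites, in NSUN5P1, NSUN5P2 and RPSAP58, were not placed in an annotated exon. Reads at listed sites summed to 377637 in the small subunit library and 189137 in the large subunit library, with a median coverage of 69 and 68 reads per listed site. The 5 deepest shared sites held 81.4% of the reads at shared sites in the small subunit library and 74.9% in the large subunit library.

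m5C levels in the small and the large subunit library were close at most shared sites, and 3 of 113 sites (2.65%) differed past an adjusted p of 0.05. All 3 were lower in the small subunit library, and they were in the mitochondrial 12S rRNA MT-RNR1, in RPSA and in RPS29. Without sites whose window occurs in another gene, MT-RNR1 alone was called among 71 sites. The median level was 19.8% in the small subunit library and 20.4% in the large subunit library. The median difference per site, small minus large, was 0.42 percentage points (95% interval of the median over sites −0.34 to 1.60), with 65 sites higher in the small and 48 higher in the large subunit library. At 79 sites (69.9%) the levels lay within 5 points of each other. Over the 113 sites the levels had a Spearman rho of 0.864, as a description of sites that share both libraries and are all listed at 10% or more. Levels spanned the same range in both, from 10.1% to 76.7% in the small and from 10.0% to 76.5% in the large subunit library. At 50% or more in both libraries were 11 sites, among them those of MAPK3, RPS6KB2, FURIN, CHCHD10 and QARS.

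**Figure D1:**
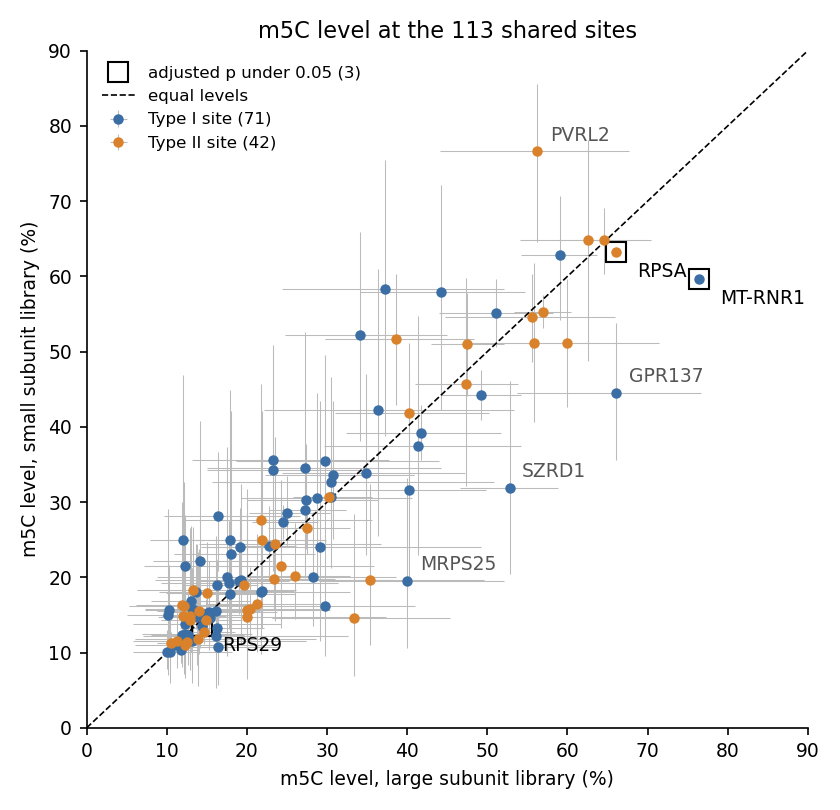
m5C level in the small subunit library (vertical axis, %) against the level in the large subunit library (horizontal axis, %) at the 113 shared sites, with 95% Wilson intervals as grey bars and the site type as colour. Most sites lie near the dashed line of equal levels, and MT-RNR1, boxed with RPSA and RPS29 as past the threshold, lies 16.7 points below it.

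The site with the largest difference among the called sites was in MT-RNR1 (mitochondrial genome, position 1488, plus strand, the single exon of the gene). MT-RNR1 encodes the 12S rRNA of the small subunit of the mitochondrial ribosome, and a cytosine of this rRNA is known to be methylated by NSUN4. The level was 59.7% of 107456 reads in the small subunit library (95% Wilson interval 59.4 to 60.0) and 76.5% of 37555 reads in the large subunit library (76.0 to 76.9). The difference was −16.7 points (95% Newcombe interval −17.3 to −16.2), and its Fisher's exact p was below the smallest number the computation can hold. In the other libraries the level was 56.4% in free RNA, 83.7% in monosomes, 83.6% in light polysomes and 77.8% in heavy polysomes. The free and the small subunit library were thus the lowest of the 6, and the large subunit library lay between them and the other 3. Relative coverage of this site was 2.52 times higher in the small than in the large subunit library (95% counting interval 2.50 to 2.55). Cytosolic and mitochondrial ribosomal particles of similar mass cannot be told apart in these fractions.

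RPSA, a protein of the small ribosomal subunit, held a Type II site in coding exon 3 of 7 (chromosome 3, position 39450197, plus strand). The level was 63.2% of 50654 reads in the small subunit library and 66.1% of 23359 reads in the large subunit library. The difference of −2.83 points (Newcombe interval −3.56 to −2.09) passed Fisher's exact test at an adjusted p of 4.8e-12. Along the gradient RPSA was at 62.9% in free RNA, 74.3% in monosomes, 63.9% in light polysomes and 55.2% in heavy polysomes. The same 21-nt window, with C read as T, occurred at 34 other annotated loci, and reads from processed copies of RPSA cannot be told from its own by this window. Copies listed in both libraries were RPSAP15, at 64.8% of 452 and 64.6% of 257 reads, and RPSAP58, at 51.2% of 127 and 60.0% of 60 reads. The Newcombe interval of the difference at RPSAP15 ran from −6.95 to 7.61 points and included both 0 and the RPSA value.

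RPS29, another small-subunit protein, held a Type I site in coding exon 2 of 3 (chromosome 14, position 50052737, minus strand). The level was 13.5% of 62051 reads in the small subunit library and 14.4% of 33027 reads in the large subunit library, a difference of −0.87 points (−1.34 to −0.41) with a Fisher's exact adjusted p of 0.00829. It was at 13.5% in free RNA and 16.1% in monosomes and was not listed in either polysome library. The window had 8 other loci. At these depths a difference below 1 point passes the test. Over the libraries that listed it, RPS29 lay between 13.5% and 16.1%.

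The other deep sites did not pass. RPS3, which lies near the mRNA entry channel of the small subunit, was at 11.1% of 60382 reads in the small and 10.9% of 29370 reads in the large subunit library (coding exon 6, chromosome 11, position 75115721, plus strand). Its difference was 0.15 points with an interval from −0.28 to 0.59. SLC25A6, an ADP/ATP carrier of the inner mitochondrial membrane, was at 30.7% of 18859 and 30.3% of 9883 reads (coding exon 1, chromosome X, position 1510840, minus strand), a difference of 0.44 points (−0.68 to 1.56). RPS2 was at 14.6% of 13527 and 15.4% of 4698 reads, a difference of −0.78 points (−1.99 to 0.39). PABPC1, the main cytoplasmic poly(A)-binding protein, was at 18.95% of 7805 and 19.7% of 10685 reads, a difference of −0.72 points (−1.87 to 0.43). At these 4 sites a shift of more than 2 points between the libraries lay outside the counting interval.

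**Figure D2:**
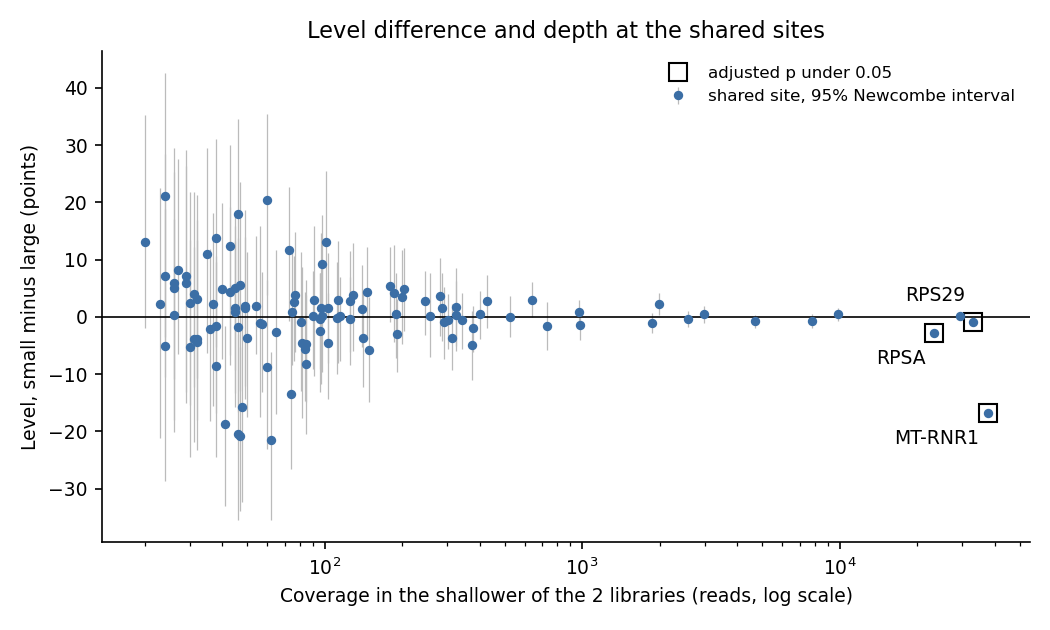
Level difference, small minus large subunit library (vertical axis, percentage points, 95% Newcombe intervals), against the coverage in the shallower library (horizontal axis, reads, log scale) at the 113 shared sites. Differences narrow with depth, and the 3 boxed sites past the threshold each had at least 23359 reads in the shallower library.

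Depth set how large a difference could be detected. Among the 39 sites with 20 to 49 reads in the shallower library the median absolute difference was 5.02 points, and it was 2.90 points at 50 to 99 reads, 2.79 points at 100 to under 500 reads and 0.83 points at 500 or more reads. The median half-width of the Newcombe interval was 17.1 points in the first of these classes and 1.48 points in the last. The levels differed by more than 10 points at 16 sites, and 14 of them had between 20 and 74 reads in the shallower library. The exceptions were MT-RNR1 and PLD3.

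At an unadjusted p under 0.05, 9 of 113 sites (7.96%) were counted, of which 7 were higher in the large and 2 higher in the small subunit library. Besides the 3 called sites these were GPR137, SZRD1, PVRL2, MRPS25, NT5DC2 and REXO4, and none of these 6 passed the adjustment. GPR137, a membrane protein related to G protein-coupled receptors, was at 44.5% of 110 reads in the small and 66.1% of 62 reads in the large subunit library (adjusted p = 0.203, Fisher's exact test). In the other 4 libraries GPR137 lay between 46.4% and 52.4%. PVRL2, the cell adhesion protein nectin-2, was at 76.7% of 60 reads and 56.2% of 64 reads, against 67.9% in monosomes, 82.7% in light polysomes and 86.9% in heavy polysomes. MRPS25, a protein of the small mitochondrial ribosomal subunit, was at 19.6% of 46 reads and 40.0% of 65 reads, and its monosome, light polysome and heavy polysome levels were 28.4%, 20.3% and 34.2%. SZRD1 was at 31.9% of 47 reads and 52.8% of 252 reads, with 48.3%, 48.2% and 39.8% in the 3 ribosomal fractions that follow. At GPR137, MRPS25 and SZRD1 the subunit libraries held the lowest and the highest of the listed levels, and at PVRL2 the large subunit library held the lowest. These sites were picked for a difference between the subunit libraries, so such extremes follow in part from the choice.

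**Figure D3:**
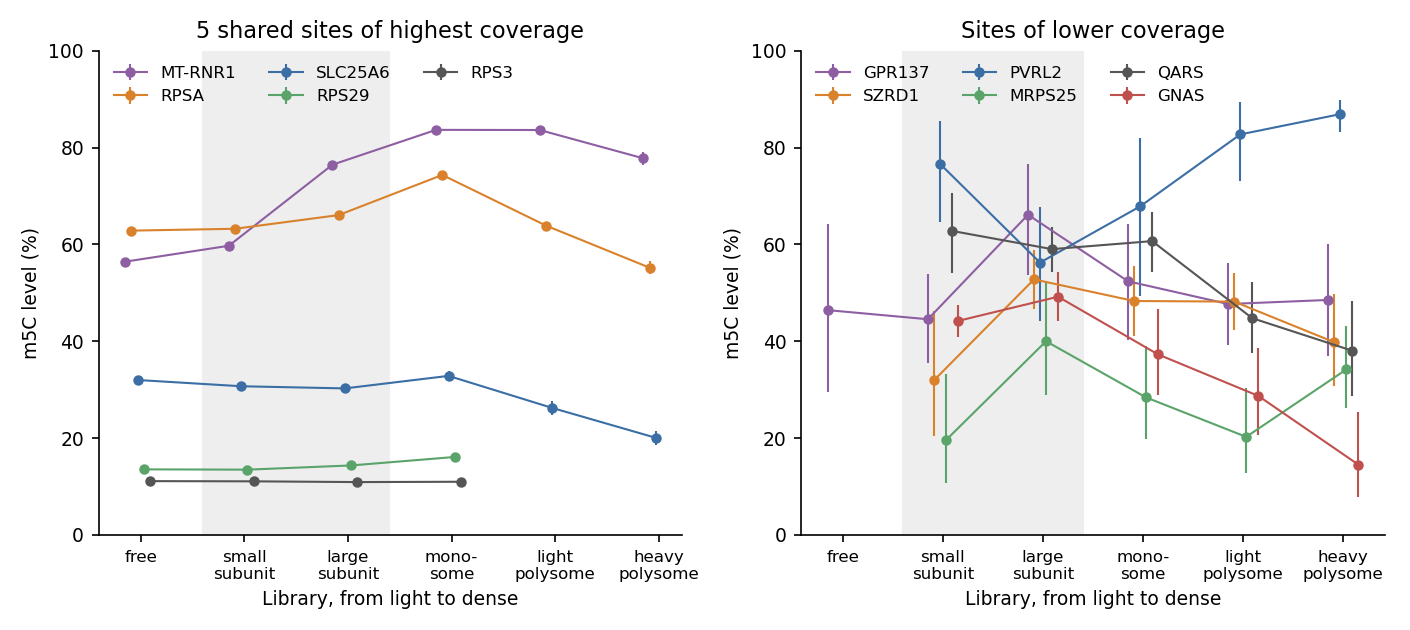
m5C level (%) with 95% Wilson intervals in the 6 libraries from light to dense, for the 5 shared sites of highest coverage (left) and for 6 sites of lower coverage (right), with the subunit libraries shaded. MT-RNR1 goes from 59.7% in the small to 76.5% in the large subunit library, whereas SLC25A6 is at 30.7% and 30.3%.

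Among sites with 100 reads or more in both libraries, the sites with the largest differences other than MT-RNR1 were these 11. Toward the large subunit library these were NVL (20.1% against 26.0%), GNAS (44.2% against 49.2%), CALM3 (15.8% against 20.4%), CS (18.2% against 21.9%) and TARBP2 (19.8% against 23.4%), small subunit value first. GNAS encodes the stimulatory G protein alpha subunit and CS the mitochondrial citrate synthase. Toward the small subunit library they were PLD3 (51.6% against 38.6%), CDV3 (15.6% against 10.3%), SERP1 (24.1% against 19.1%), RCN1 (18.1% against 13.7%), CHCHD10 (55.2% against 51.1%) and QARS (62.8% against 59.0%). The interval of the difference included 0 at all 11 of these sites. For PLD3, the one with the largest difference, it ran from −0.09 to 25.5 points, and for GNAS from −11.0 to 1.05 points.

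Levels by type and location moved by a few points at most. Type I sites had a median difference of 0.93 points (95% interval 0.06 to 2.58), with 45 of 71 higher in the small subunit library. Type II sites had a median difference of −0.65 points (−1.72 to 1.40), with 20 of 42 higher in the small subunit library. The intervals of the types overlapped, and their difference was not tested. At 50 reads or more in each library the medians were 0.20 points for Type I and −0.72 points for Type II. Sites in coding sequence had a median difference of 0.92 points (−0.12 to 2.58), those in 3′ UTRs 0.08 points (−4.56 to 2.22) and those in 5′ UTRs 1.50 points (−5.68 to 5.35). At 50 reads or more these medians were 0.19, −1.21 and 2.18 points in this order. Sites in transcripts longer than 3500 nt had a median difference of 2.57 points (0.38 to 4.34), with 20 of 26 higher in the small subunit library. These sites had a median coverage of 46 reads in the small and 106 in the large subunit library. The fewest C reads at any site in either subunit list were 5, which is 25% at 20 reads and 10% at 50 reads. At the 49 shared sites where the small subunit library was the shallower one, the median difference was 1.82 points (0.06 to 3.77), and at the 63 sites where the large subunit library was the shallower one it was 0.15 points (−0.78 to 0.44). CNTROB, at exactly 5 of 20 reads in the small and 12.0% of 167 reads in the large subunit library, is a site with this fewest number of C reads. The part of the fewest listed C reads in the median differences was not tested.

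Relative coverage was compared next, as a description. The coverage ratio of small over large was divided by its median over the shared sites, 1.13, and is given on the log2 scale, so that 0 is the typical shared site. It spanned −3.24 to 2.68, with the middle of the sites (25th to 75th percentile) between −0.77 and 0.75. Relative coverage was at least 2-fold higher in the small subunit library at 18 of 113 sites (15.9%), and at least 2-fold higher in the large subunit library at 22 (19.5%). Scaled by summed reads at shared sites in place of the median, the split was 1 and 51, and scaled by mapped reads it was 28 and 16. Summed reads lower every ratio by 0.87 and mapped reads raise it by 0.24, so the ratios below are relative to the typical shared site. Each count rests on 1 library per side, so it describes these libraries and has no test. Coverage of bisulfite reads at a called site stands for how much of the transcript was sequenced in a library, and fewer molecules and fewer mapped reads per molecule cannot be told apart.

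The 6 sites with the highest ratios were in annotated transcripts of 638 to 1787 nt. Of the 18 sites at least 2-fold higher in the small subunit library, 4 were in noncoding exons, as were 12 of all 113 shared sites. Among the 4 were RPS2P5 and RPS2P55, which have the window of RPS2 with C read as T. RPPH1, the catalytic RNA of ribonuclease P, which is not translated, had 699 reads in the small and 96 in the large subunit library. The site was at chromosome 14, position 20811393, minus strand, in an annotated transcript of 638 nt. The relative coverage of RPPH1 was 6.42 times higher in the small subunit library (95% counting interval 5.18 to 8.04). It had 7464 reads in the free library and was not listed in the 3 ribosomal libraries, while its level stayed at 39.9%, 39.2% and 41.7% in free RNA and the subunit libraries. MARCKSL1, a membrane-associated substrate of protein kinase C, had 1416 and 377 reads, a relative coverage 3.31 times higher in the small subunit library (2.96 to 3.72). TMEM219 followed with 1519 and 428 reads and 3.13 times, MAPK3, the kinase ERK1, with 273 and 81 reads and 2.97 times, and RPS2 with 13527 and 4698 reads and 2.54 times. The levels of MARCKSL1 (12.7% and 14.6%), TMEM219 (27.3% and 24.5%) and MAPK3 (54.6% and 55.6%) did not pass the test of a difference.

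The 6 sites with the lowest ratios were in transcripts of 3480 to 6322 nt. CNTROB, a centriolar protein, had 20 reads in the small and 167 in the large subunit library, a relative coverage 9.46 times higher in the large subunit library (5.94 to 15.9). SZRD1 had 47 and 252 reads (6.08 times, 4.44 to 8.48), HDLBP, the RNA-binding protein vigilin, 54 and 271 reads (5.69 times) and BAG6, a chaperone of membrane proteins in the cytosol, 46 and 228 reads (5.62 times). LMAN1, a cargo receptor between endoplasmic reticulum and Golgi, had 32 and 142 reads (5.03 times). EIF4B, a factor that helps the scanning initiation complex unwind mRNA, was the deepest of them, with 637 and 2642 reads (4.70 times, 4.31 to 5.13), and its window had 5 other loci. Of these 6, HDLBP and EIF4B were also listed in free RNA. None of the 6 differed in level past the threshold.

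**Figure D4:**
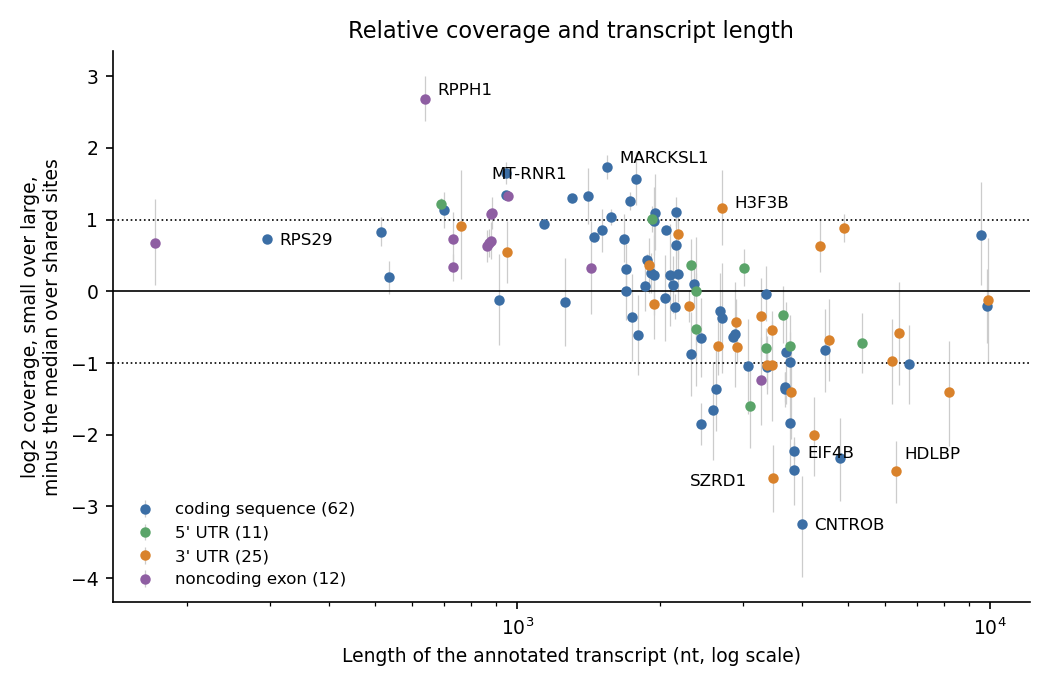
Relative coverage, as log2 of small over large subunit reads minus the median over shared sites (vertical axis, exact 95% counting intervals), against the length of the annotated transcript (horizontal axis, nt, log scale) at the 110 sites with a transcript, coloured by location. Sites of short transcripts lie mostly above 0 and those of long transcripts mostly below it, with dotted lines at 2-fold.

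Over the 110 sites with an annotated transcript, the ratio had a Spearman rho of −0.71 with transcript length, as a description of sites that share the same pair of libraries. The median ratio was 0.79 at the 26 sites in transcripts of up to 1500 nt, 0.25 at the 36 sites of more than that and up to 2500 nt, −0.77 at the 22 sites above this and up to 3500 nt, and −0.98 at the 26 sites in longer transcripts. Of the 18 sites at least 2-fold higher in the small subunit library, the longest transcript was that of H3F3B (2705 nt), a histone H3.3 gene, and the median was 1358 nt. Of the 22 sites at least 2-fold higher in the large subunit library, the shortest was that of QARS (2449 nt) and the median was 3683 nt. The rho was −0.55 for coverage in the small subunit library alone and −0.22 for that in the large subunit library alone. It was −0.48 with the distance to the transcript's 3′ end, which itself rises with length (rho 0.69), and −0.12 with the position as a share of the transcript. Level and length were less closely related, with a rho of 0.14 between the level difference and transcript length. Noncoding exons had a median ratio of 0.69 (12 sites, median length 876 nt) and 3′ UTR sites of −0.53 (25 sites, median length 3457 nt), and coding sites were at 0.04 (62 sites, 2118 nt). Site type made little difference, with medians of 0.10 for Type I and −0.05 for Type II.

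Sites of the same gene gave a check on the ratio within a transcript. There were 3 genes with 2 shared sites. In TRAF7, a ubiquitin ligase, the ratios were −1.37 and −1.33 at 455 and 634 large subunit reads. In ATP5SL they were 0.32 and 0.00. In ELAC2, the endonuclease that trims the 3′ ends of tRNA precursors, they were −0.99 and −1.84, the latter at 27 and 85 reads. The ratio thus kept its side of the median in TRAF7 and ELAC2, and in ATP5SL the ratios lay above and at the median. The gap between the 2 sites was 0.03 in TRAF7, 0.32 in ATP5SL and 0.85 in ELAC2. In the small subunit library the level was 51.0% at the Type II site and 24.2% at the Type I site of TRAF7, and in the large subunit library 47.5% and 22.7%. The ELAC2 sites, both Type I, were at 14.7% and 22.22% in the small and 13.7% and 14.1% in the large subunit library. The ATP5SL sites were at 12.4% (Type I) and 41.8% (Type II) in the small and 12.7% and 40.2% in the large subunit library.

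Shared sites of cytosolic ribosomal protein genes lay toward the small subunit library, while the sites of the list in 1 library were 2 in the small (RPLP2 and RPL18) and 3 in the large subunit list (RPS26, RPS15A and RPL32). All 4 shared sites of the list (RPS2, RPS3, RPS29 and RPSA) had ratios above the median of all sites, from 0.73 to 1.35 with a median of 0.90, and 1 of 4 passed 2-fold (15.9% of all shared sites), although RPS3 and RPS29 fall below 0 when scaled by summed reads. All 4 encode proteins of the small subunit. Their median transcript length was 1042.5 nt, and all shared sites in transcripts of up to 1500 nt had a median ratio of 0.79. The median level difference of the 4 was −0.83 points, against 0.42 points over all 113 sites, and 2 of the 4 passed the level test (2.65% of all shared sites). The 16 shared sites with 500 or more reads in the shallower library included these 4 and all 3 called sites. Over the 16 sites the median difference was −0.52 points. Noncoding and pseudogene transcripts had a median length of 876 nt at their shared sites. Their median ratio was 0.68, which also falls below 0 by summed reads, with 12 of 14 shared sites above the median of all sites. Of these 14, 7 had the same 21-nt window, with C read as T, as RPS2, RPS3, RPS29 or RPSA. Reads from gene and copy cannot be told apart there by this window, and sequence beyond it was not compared. At the RPS2 window the 4 copies RPS2P5, RPS2P55, RP11-452G18.2 and RP3-337H4.6 had ratios between 0.67 and 1.09 and RPS2 itself 1.35. Their levels were 13.3% to 19.02% in the small and 14.7% to 16.3% in the large subunit library, around the 14.6% and 15.4% of RPS2.

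Nuclear genes of mitochondrial proteins had 9 shared sites, of which 8 had ratios above the median of all sites, and 3 (SLC25A5, CHCHD10 and SLC25A39) passed 2-fold toward the small subunit library, as did 15.9% of all shared sites. Of the same list, 2 further sites were in the small and 4 in the large subunit list alone. Their median ratio was 0.75, which summed reads put below 0, and their median transcript length was 1451 nt. The exception was MRPS25, at −0.68 with a transcript of 4572 nt. None of the 9 differed in level past the threshold, and 5 were higher in the small subunit library. CHCHD10, a protein of the mitochondrial intermembrane space, had 462 and 186 reads, SLC25A5, another ADP/ATP carrier, 7197 and 2583 reads, and C19orf70, a subunit of the complex that organises cristae, 587 and 291 reads.

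Shared sites of translation factors, aminoacyl-tRNA synthetases and poly(A)-binding proteins lay toward the large subunit library. Of 6 such sites, 5 had ratios below the median of all sites, with a median of −0.73, and EIF4B and QARS passed 2-fold, against 19.5% of all shared sites. Their median transcript length was 3159 nt. All shared sites in transcripts above 2500 and up to 3500 nt had a median ratio of −0.77. Whether the list differs from other transcripts of its length was not tested. A further site of the list, in ETF1, was in the small subunit list alone. QARS, glutaminyl-tRNA synthetase, had 129 reads in the small and 410 in the large subunit library at levels of 62.8% and 59.0%. IARS, isoleucyl-tRNA synthetase, had 43 and 67 reads, and EIF2S3, the gamma subunit of the initiation factor that delivers initiator tRNA, 980 and 1251 reads. HARS, histidyl-tRNA synthetase, was the exception, at 0.23 with 65 and 49 reads and the shortest transcript of the list (1948 nt). None of the 6 passed the level test, and 4 were higher in the small subunit library. The single histone site, in the 3′ UTR of H3F3B, had 114 and 45 reads and levels of 19.3% and 17.8%. No site of an m5C writer or reader on the list fixed by symbol was listed in any library.

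The lists of the subunit libraries shared 113 of 319 sites (35.4%), which were 56.8% of the small subunit list and 48.5% of the large subunit list. By gene, 110 of 304 were in both, 82 were in the small subunit list alone and 112 were in the large subunit list alone. Too low a coverage and a level under 10% both keep a site off a list. So do the study's further filters, on unconverted reads, signal ratio, conversion-resistant genes and a binomial test. For a given site these reasons cannot be told apart. The 86 sites of the small subunit list alone had a median coverage of 56 reads and a median level of 13.9%, and 65 of them were under 20%. The 120 sites of the large subunit list alone had a median coverage of 51.5 reads and the same median level of 13.9%, and 84 were under 20%. At shared sites the medians were 122 and 113 reads and about 20% in each library, so the sites in 1 list lay closer to the listing limits.

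Sites in 1 list differed by transcript length in the direction of the coverage ratios. The median transcript length was 2125 nt (95% interval of the median over sites 1799 to 2491) for the small subunit list alone. It was 3342 nt (2946 to 3852) for the large subunit list alone. These intervals describe the listed sites of 1 library per side, and the difference was not tested. Of the sites with a transcript, 28 of 83 in the small and 10 of 117 in the large subunit list alone had one of up to 1500 nt, while 17 and 56 had one longer than 3500 nt. In the free library, 32 of the 86 small-only sites (37.2%) and 11 of the 120 large-only sites (9.17%) were listed. In heavy polysomes this was 18.6% and 35.8%, and in light polysomes 27.9% and 38.3%. Of the shared sites, 82.3% were also listed in monosomes and 52.2% in free RNA. No other library listed 35 of the small-only and 49 of the large-only sites.

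**Figure D5:**
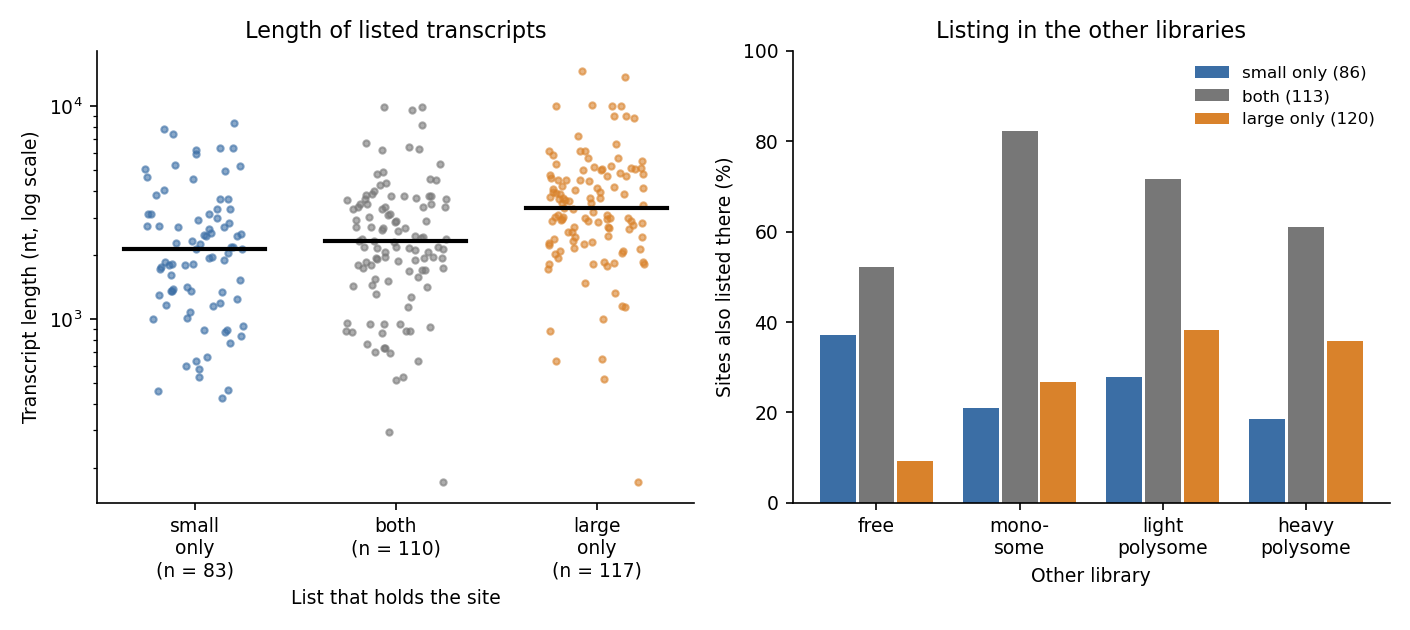
Left, length of the annotated transcript (nt, log scale) for sites listed in the small subunit library alone, in both and in the large subunit library alone, with the median as a black line (2125, 2318 and 3342 nt). Right, percentage of each set that was also listed in each of the other 4 libraries, with 37.2% of small-only and 9.17% of large-only sites also in free RNA.

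Among sites of the small subunit list alone with 50 reads or more, RP11-182B22.2, a processed pseudogene with the same converted window as RPSA, had the highest level, at 71.2% of 66 reads, and REEP6 followed with 53.6% of 56 reads in its 3′ UTR. PLTP, the phospholipid transfer protein, was at 27.1% of 59 reads, MPP6 at 20.3% of 59, RABIF at 19.4% of 62 and PET100, an assembly factor of cytochrome c oxidase, at 18.5% of 200. All 6 were Type II sites, as were 36 of all 86 small-only sites (41.9%). The deepest sites were RPS3P6, a copy of RPS3, at 10.1% of 2868 reads, and APRT, an enzyme of purine salvage, at 10.7% of 1419 reads. APRT was listed in no other library, and its Wilson interval (9.21 to 12.4) reached below the listing limit of 10%. The same held for a second site of NDUFB7, a subunit of respiratory complex I, at 11.2% of 196 reads (7.53 to 16.4). CCT5, a subunit of the cytosolic chaperonin, was at 14.6% of 178 reads and SPG21 at 11.9% of 176.

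Among sites of the large subunit list alone with 50 reads or more, RAB15, a small GTPase of endosomes, had the highest level, at 63.0% of 92 reads in its 3′ UTR, and was at 43.8% to 50.0% in monosomes and polysomes. WIZ, a zinc finger protein that binds histone methyltransferases, held a site at 47.1% of 420 reads in a transcript of 8987 nt, with 37.1%, 30.9% and 12.3% in monosomes, light and heavy polysomes. A second WIZ site was at 14.9% of 302 reads. TJAP1 (16 of 64 reads), NCDN (16 of 70), SUDS3 (15 of 66) and SRRT (17 of 81) followed, at 20% to 25%. They were all in coding sequence, as were 57 of all 120 large-only sites. The deepest large-only site was in RPS26, at 10.1% of 2762 reads with a Wilson interval of 9.03 to 11.3, listed in no other library and with 28 other loci of the same window. MRPL37, a protein of the large mitochondrial ribosomal subunit, was at 12.0% of 549 reads and GPAA1, a subunit of the GPI transamidase, at 11.9% of 319. EIF4BP7, EIF4BP6 and EIF4BP3 are processed copies of EIF4B with the window of its site. They were listed in the large and not in the small subunit library, at 11.9% of 318, 12.1% of 132 and 11.1% of 45 reads. Their parent EIF4B was at 12.0% of 2642 reads there and 14.9% of 637 in the small subunit library.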

How the data were processed

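Libraries of poly(A) RNA from the gradient fractions were grouped by their labels, 1 per fraction. Per the submitters' processing notes the authors used cutadapt 1.13, Trimmomatic 0.36, HISAT2 2.10, Bowtie2 2.2.9 and SAMtools with GRCh37. Deposited coverage values are raw counts of C plus T reads per site. The deposited m5C level is the C reads as a fraction of that coverage. The P-value deposited by the authors was not used to select sites. The lists hold called sites alone. The study's methods filter reads by their number of unconverted cytosines, which can lower levels, and whether counting preceded this step is not given in the sources used here.

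C reads were level times coverage. Members and lists were chosen with earlier results of these data known. Sites were placed in GENCODE 44 lifted to GRCh37. Levels were tested per site with Fisher's exact test (two-sided) and Benjamini-Hochberg adjustment over 113 sites (threshold 0.05). Counting intervals were Wilson, Newcombe and exact at 95%, with the median ratio held fixed, and cover counting error only, as reads had no molecular identifiers. Intervals of medians were order-statistic intervals at 95% over sites, which share libraries, so they hold no spread between cultures. Length classes were set after the data were seen. Named sites were every site past the threshold, up to 6 with the largest level difference in each direction at 100 reads or more, up to 6 with the highest and lowest coverage ratio, the 5 deepest, up to 6 per list by level (50 reads or more) and by coverage among sites in 1 list, and members of the gene lists. GPR137, SZRD1, PVRL2, MRPS25, NT5DC2 and REXO4 were named for an unadjusted p under 0.05, and TRAF7, ATP5SL and ELAC2 for holding 2 sites, after their values were seen. Alternatives covered coverage and level minimums, gene classes, shared windows, scaling and the test. The test was checked on simulated data. Python 3.11.15, numpy 2.4.6, scipy 1.17.1 and pandas 2.3.3 were used.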

Additional observations from a re-analysis of the deposited data

Results flagged for a closer look

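The subunit libraries listed none of 223 sites that were called elsewhere in the gradient. Most of these, 184, were in 1 other library, 35 were in 2 and 4 were in 3. The 4 sites, flagged as signal in libraries outside the comparison, were in FKBP10, HOXD-AS2, LINGO1 and SMARCB1. FKBP10, a prolyl isomerase of the endoplasmic reticulum, held a 3′ UTR site at 12.3% of 584 reads in heavy polysomes (95% Wilson interval 9.91 to 15.2), with 11.1% in light polysomes and 11.7% in monosomes. HOXD-AS2, a noncoding RNA of the HOXD cluster, was at 31.6% of 38 reads in free RNA (19.1 to 47.5), at 45.5% of 33 reads in monosomes and at 37.9% of 29 reads in light polysomes. LINGO1 held a Type II coding site at 13.3% of 113 reads in light polysomes (8.21 to 20.8). SMARCB1, a subunit of SWI/SNF chromatin remodelling complexes, held a 3′ UTR site at 12.1% of 124 reads in free RNA (lower bound 7.47). The coverage of these sites in the subunit libraries was not analysed here, and at FKBP10, LINGO1 and SMARCB1 the intervals reached below the listing limit of 10%.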

How the results depend on the processing

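The number of sites that differed in level stayed between 2 and 3 under 7 of 9 alternatives. It was 1 of 71 (MT-RNR1) without sites whose converted window occurs in another gene, and 0 of 108 by Fisher's exact test without the 5 deepest sites, an alternative chosen after seeing the data, where 6 sites had an unadjusted p under 0.05 and the chi-square test also called 0. The median level difference was 1.74 points without shared windows, the cause of which was not tested, and the coverage-weighted mean was −4.23 points, or −0.67 points without MT-RNR1, which held 22.1% of the weight. Sites 2-fold apart in relative coverage numbered 40. At 50 reads or more they were 17 of 74, with 4 higher in the small and 13 in the large subunit library (centre moved by −0.35 log2). Without shared windows they were 24 of 71, with 13 higher in the small and 11 in the large subunit library (0.22). Both alternatives counted fewer sites and took a new centre. Scaling moved the split of 18 higher in the small and 22 higher in the large subunit library, to 1 and 51 by summed reads (centre moved by −0.87 log2), 4 and 38 without the 5 deepest sites (−0.43) and 28 and 16 by mapped reads (0.24), so the direction of a site near the median depends on it. Of 8 alternatives for the rho with transcript length, chosen after seeing the data, the lowest was −0.72 and the highest −0.61, with coding in place of transcript length. The share of sites in both lists was 34.6% to 38.7% under 4 alternatives. Depth limits small differences, since a listed site had 20 reads or more and 1 library per fraction leaves no measure of spread between cultures. No paired analysis was possible because each group holds 1 library.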

Other observations

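The other neighbouring fractions of the gradient were set beside this pair as values, and they share libraries with it. The Spearman rho of the coverage ratio, lighter over denser, with transcript length was −0.57 over 87 sites for free RNA over small subunit, −0.71 over 110 sites for small over large subunit, 0.40 over 121 sites for large subunit over monosomes, −0.07 over 103 sites for monosomes over light polysomes and −0.30 over 130 sites for light over heavy polysomes. The sign was opposite for the large subunit over monosomes. Sites differing in level past the same threshold were 2 of 91, 3 of 113, 5 of 125, 9 of 105 and 5 of 132 in this order. There were 3 ribosomal protein sites, each listed in 1 library, in pyrimidine-rich windows at 21 to 30 reads. These were RPLP2 and RPL18 in the small subunit list (134 and 508 other loci with the same converted window) and RPS15A in the large subunit list (320 other loci). An NDUFV3 site of the large subunit list (19.7% of 61 reads) lay within a run of A in its 3′ UTR, with 27 other loci.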
